A study of Mus musculus with 9 samples.

Results

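The extracellular matrix genes, their integrin receptors and the proteases that cut the matrix were described in TC2R mouse prostate cancer cells that had been transfected to make interleukin-27 (IL-27). Members were taken by a rule on gene symbols that uses no measured value, although the set was proposed with earlier results of these data known, and numbered 92 of the 12125 genes of the count table. They comprised 23 collagen chains, 9 laminin chains, 16 integrin subunits, 13 matrix metalloproteinases (MMPs), 9 ADAMTS proteases, 2 ADAMTS-like proteins, 5 protease inhibitors, among them the tissue inhibitors of metalloproteinases (TIMPs), 3 fibulins, 3 thrombospondins, 5 lysyl oxidases, fibronectin (Fn1) and Sparc. The symbol rule also took Itgb1bp1 and Itgb3bp, which encode proteins that bind integrins and are not integrins themselves. The GENCODE annotation of GRCm38 holds 150 genes with such symbols, and those outside the 92 were not analysed here.

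TC2R is a line derived from TRAMP-C2 prostate adenocarcinoma cells (C57/BL6 background). Its cells carry lentiviral transgenes in every group, an activated H-ras and the androgen receptor of mouse. The first group, IL27_pepL, received a plasmid for IL-27 with the C-terminal peptide pepL, which targets the cytokine to the IL-6 receptor alpha chain. The second, IL27_scr, received the same backbone with IL-27 and a non-specific control peptide. The plasmid control received the empty backbone. Each group had 3 libraries, each from cells given 1.5 µg of plasmid by lipofection for 6 h and collected 24 h after transfection began. The study tested the targeted form of IL-27, and the groups show how the matrix programme of the tumour cells themselves compared after each plasmid. The labels do not say that replicates came from separate cultures, so p-values cover only how far these samples spread, which may be technical variation. All samples come from a single line.

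Library totals lay between 30013229 and 34164353 counts in IL27_pepL, between 30087806 and 35959983 in IL27_scr and between 27609884 and 35078027 in plasmid control. The plasmid-borne subunit Ebi3 was read at 9.19, 11.1 and 14.2 CPM (counts scaled to library total) in IL27_pepL and at 7.75, 7.40 and 8.86 CPM in IL27_scr, against 1, 2 and 0 reads in the plasmid control libraries. The cells are labelled prostate adenocarcinoma, and their markers were mostly mesenchymal. Vim averaged 3577 TPM (counts scaled to exon length and library total) in IL27_pepL, 3439 in IL27_scr and 3391 in plasmid control, while the luminal keratin Krt8 averaged 2.57, 3.02 and 2.98 TPM in the same order and the epithelial cadherin Cdh1 averaged 0.315, 0.364 and 0.381 TPM. Krt19, also a luminal keratin, averaged 9.18, 7.74 and 7.95 TPM in that order. The other mesenchymal genes Cdh2, Zeb1, Zeb2, Snai2 and Twist1 averaged 54.2, 35.2, 30.5, 157 and 53.9 TPM in plasmid control. Krt18, Epcam and the basal markers Krt5, Krt14 and Trp63 were not analysed here.

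The matrix is built from collagens, which form fibrils or the sheet-like network of basement membranes, from laminins, which join as alpha, beta and gamma chains, and from adhesive glycoproteins such as fibronectin. Integrins, each an alpha paired with a beta subunit, hold the cell to these ligands and signal from them. Lysyl oxidases cross-link collagen and elastin, MMPs and ADAMTS enzymes cut matrix proteins, and TIMPs and other inhibitors restrain the cutting. In prostate cancer these genes are known for their part in invasion and in the stroma around the tumour.

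Among the most abundant members were the beta-1 integrin chain and several secreted glycoproteins and inhibitors. Levels are given here as TPM, computed from the counts and the exon length of each gene. Itgb1, the beta chain shared by most matrix-binding integrins, averaged 552 ± 57.8 TPM in IL27_pepL, 597 ± 16.2 TPM in IL27_scr and 610 ± 3.37 TPM in plasmid control (SD, n = 3 each). Sparc, a collagen-binding glycoprotein, averaged 348 TPM in plasmid control, with Fbln2 at 328.5, Timp2 at 312, Timp1 at 216 and the basement membrane collagen chain Col4a1 at 180 TPM. In plasmid control 15 members reached 100 TPM, 37 lay between 10 and 100, 17 between 1 and 10, and 23 under 1 TPM. The median member stood at 17.4 TPM, beside 27.1 TPM for all genes with a length. Together the 92 members took 0.897%, 0.825% and 0.783% of counts in the 3 IL27_pepL libraries, 0.864%, 0.837% and 0.835% in IL27_scr, and 0.882%, 0.864% and 0.854% in plasmid control.

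**Figure D1:**
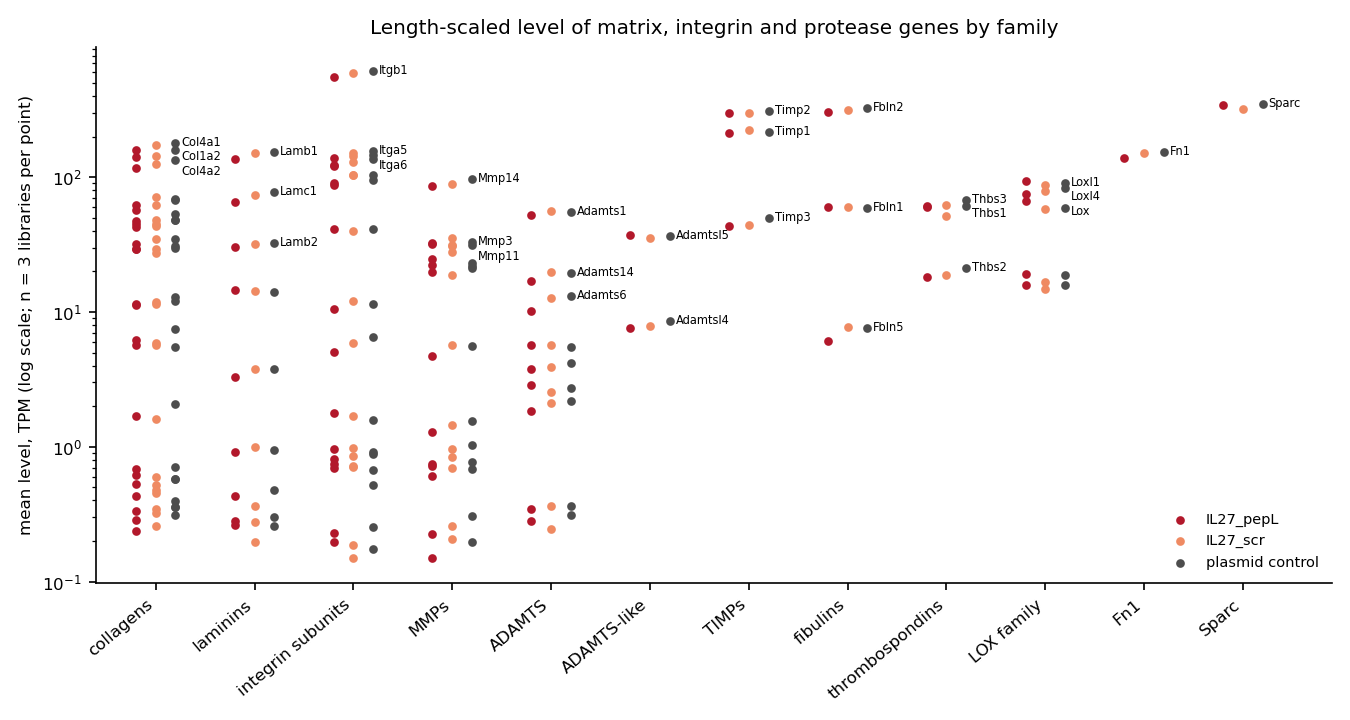
Mean TPM (log scale, n = 3 libraries per point) of the members in the families shown, with IL27_pepL left, IL27_scr in the middle and plasmid control right within a family. The highest members of each family are named, and points of 1 gene lie at nearly the same height in all groups, as for Itgb1 at 552, 597 and 610 TPM.

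The targeted IL-27 plasmid and the empty plasmid were compared to ask which matrix genes move when cells make IL27_pepL. A single member passed, the secreted metalloprotease gene Adamts6 on chromosome 13 (GRCm38, 104287835 to 104496695, plus strand). Adamts6 was read at 27.7, 27.9 and 25.3 CPM in IL27_pepL, against 32.7, 35.1 and 31.5 CPM in plasmid control. Every IL27_pepL library was below every plasmid control library. The log2 fold change was -0.29 with a standard error of 0.06 (edgeR's quasi-likelihood test, Benjamini-Hochberg adjusted p = 0.0348). This was 1 of 92 members, or 1.09%, where 1.62% of all genes tested were called. At an unadjusted p under 0.05 there were 9 members (9.78%), where 23% of all genes reached that level, with 2 higher beside 11.2% of all genes and 7 lower beside 11.8%. Groups did not overlap for 8 members (8.7%), beside 24% of all genes, with 3 higher beside 10.7% and 5 lower beside 13.4%. Of the 92 members 38 had a log2 fold change above 0, or 41.3%, beside 50.6% of all genes. The Adamts6 call was lost when any 1 library other than IL27_pepL replicate 1 was left out, with adjusted p between 0.0528 and 0.178.

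After Adamts6 the smallest p-values belonged to receptor chains. Itga7, the alpha chain of a laminin receptor best known from muscle, was read at 8.28, 8.88 and 8.001 CPM in IL27_pepL, against 10.3, 10.5 and 9.58 CPM in plasmid control. Its groups did not overlap, and its log2 fold change of -0.27 ± 0.08 (SE) did not pass (edgeR, adjusted p = 0.0948). Itgb4, the beta chain that pairs with Itga6 in hemidesmosomes, was read at 1.61, 1.69 and 2.07 CPM in IL27_pepL, at 1.6, 1.73 and 1.78 CPM in IL27_scr and at 1.17, 1.30 and 1.28 CPM in plasmid control. Both IL-27 groups lay above all plasmid control libraries at this low level. The log2 fold change against plasmid control was 0.51 ± 0.17 in IL27_pepL and 0.45 ± 0.17 in IL27_scr, and neither passed (edgeR, adjusted p = 0.11 and 0.999).

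IL-27 with the control peptide was compared with the empty plasmid to show the effect of the cytokine without targeting. No member passed edgeR's test, where 3 of all 12125 genes, or 0.0247%, did, and DESeq2 and limma-voom called 0 members as well. At an unadjusted p under 0.05 there were 12 members, or 13%, beside 2.57% of all genes. Of these 9 were lower in IL27_scr, or 9.78% beside 1.68% of all genes, and 3 were higher, beside 0.891%. Groups did not overlap for 28 members, or 30.4%, beside 10% of all genes, and 23 of them were lower in IL27_scr (25% beside 5.25% of all genes) and 5 higher (beside 4.75%). The 23 comprised 10 collagen chains (Col1a1, Col1a2, Col4a2, Col4a5, Col4a6, Col5a1, Col5a2, Col6a1, Col6a3 and Col7a1), the 3 thrombospondins, Sparc, Timp2, Timp3, Fbln2, Mmp14, Mmp23, Adamtsl4 and the integrin chains Itga3, Itga10 and Itgb1. These differences were small, and the median log2 fold change over all 92 members was -0.06, beside -0.00 for all genes. A log2 fold change above 0 was found for 28 members, or 30.4%, beside 48.4% of all genes. The 5 higher were Itgb4, Itgb7, Col8a1, Mmp13 and Mmp10.

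The smallest p of that comparison belonged to Col6a3, a chain of the beaded-filament collagen VI. Its reads came to 28, 26.97 and 26.4 CPM in IL27_pepL, to 24.3, 25.9 and 21.5 CPM in IL27_scr and to 31.2, 28.4 and 31.7 CPM in plasmid control. IL27_scr was lowest, IL27_pepL between, and no pair of groups overlapped. The log2 fold change of -0.35 ± 0.07 for IL27_scr against plasmid control had an unadjusted p of 0.000395 and an adjusted p of 0.798 in edgeR's test.

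The targeted and the control form of IL-27 were compared to show how cells differed after the 2 peptides. Transgene reads also did not overlap between these groups. Il27 was read at 6.94, 7.49 and 8.44 CPM in IL27_pepL and at 6.82, 6.71 and 5.90 CPM in IL27_scr. Ebi3 was likewise higher in every IL27_pepL library. The part of transgene level in the differences was not tested. No member passed edgeR's test, where 2.52% of all genes did. At an unadjusted p under 0.05 there were 18 members (19.6%), beside 23.3% of all genes, with 11 higher in IL27_pepL (11.9% of all genes) and 7 lower (11.4% of all genes). The closest by edgeR's quasi-likelihood test were Sparc (adjusted p = 0.051) and the lysyl oxidase Loxl1 (adjusted p = 0.0519), both higher in IL27_pepL. DESeq2's Wald test called 6 members, Sparc, Loxl1, Loxl2, Thbs1, Adamts6 and Col8a1 (6.52%, beside 6.54% of all genes in that test), and limma-voom called Sparc (1.09%, beside 2.44%). Groups did not overlap for 18 members (19.6%), beside 26% of all genes, 10 of them higher (beside 11.7%) and 8 lower (beside 14.3%). A log2 fold change above 0 was found for 56 of 92, or 60.9%, beside 51.1% of all genes, with a median of 0.05.

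The precision of the libraries bounds these differences. The 95% interval of the log2 fold change lay inside 1.5-fold in either direction for 74 members in IL27_pepL against plasmid control (beside 87.2% of all genes), for 71 in IL27_scr against plasmid control (beside 90.2%) and for 74 in IL27_pepL against IL27_scr (beside 87%). Members with a wider interval included those of few reads. Itgb8, for example, was read at 0.907, 0.802 and 0.576 CPM in IL27_pepL, at 0.787, 0.468 and 0.165 CPM in IL27_scr and at 0.799, 0.836 and 0.765 CPM in plasmid control. Its log2 fold change of 0.67 for IL27_pepL against IL27_scr had an interval from -0.14 to 1.47. IL27_pepL against plasmid control and IL27_scr against plasmid control share the plasmid control libraries, and IL27_pepL against IL27_scr shares a group with each.

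**Figure D2:**
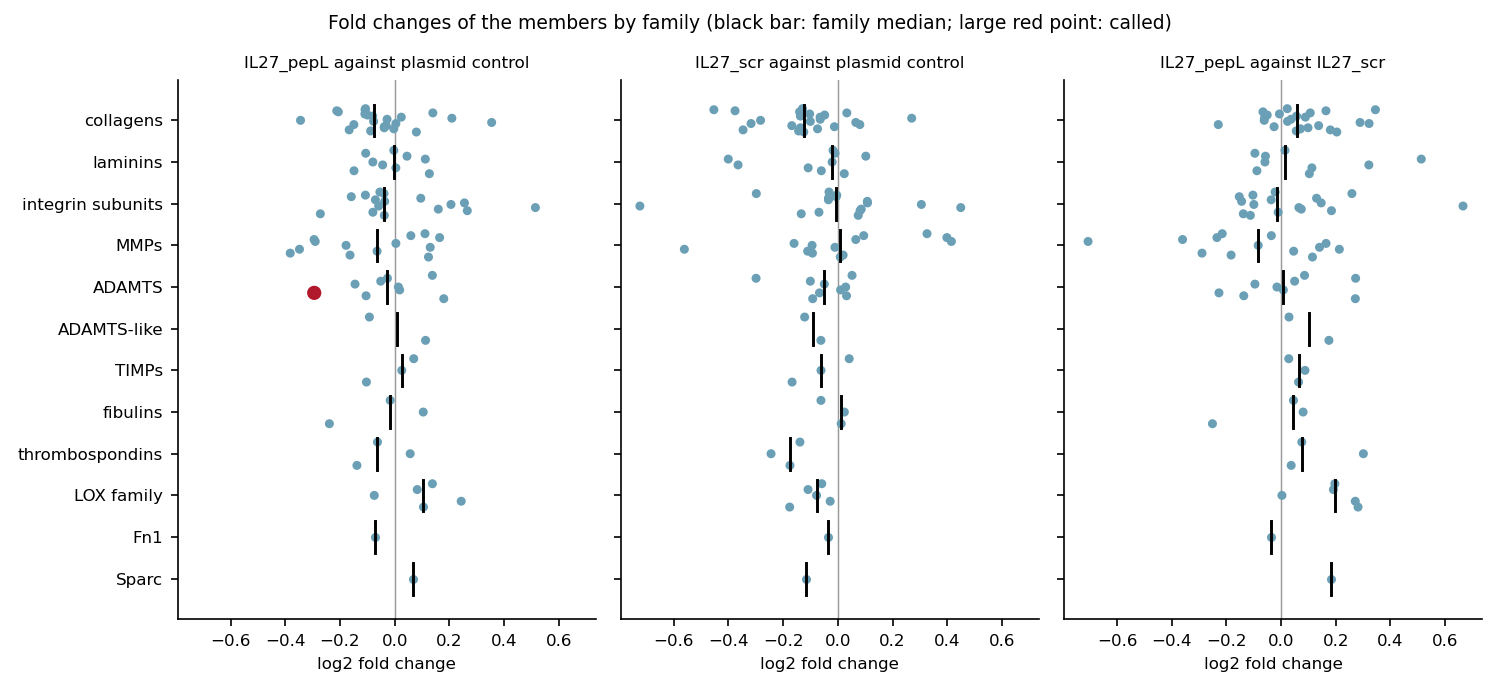
Log2 fold change (x axis) of the members in the families shown, in the 3 comparisons, with a black bar at the family median and a large red point for a called gene. Adamts6 at -0.29 is the only called member, and the 5 lysyl oxidases have a median of 0.20 in IL27_pepL against IL27_scr, where Loxl4 lies at 0.00 and takes either sign over the alternative settings (-0.05 to 0.06).

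Most collagen chains had a log2 fold change below 0 against plasmid control after both IL-27 plasmids. Of 23 chains 17 (beside 5992 of all 12125 genes) were below plasmid control in IL27_pepL, with a median log2 fold change of -0.08. In IL27_scr 19 chains were below it (beside 6251 of all genes), with a median of -0.12. The level was higher in IL27_pepL than in IL27_scr for 16 chains. Collagen genes are long, with a median exon length of 6450 bases. Against plasmid control, the longest of 4 equal-sized groups of genes by exon length had medians of -0.08 in IL27_pepL and -0.02 in IL27_scr. The collagen median in IL27_pepL was thus no lower than that of long genes in general. Without IL27_pepL replicate 3 the collagen median for IL27_pepL against plasmid control was 0.01. In IL27_pepL replicate 1, 20 of 23 chains lay above the plasmid control mean, against 4 chains in each of replicates 2 and 3. None passed the test in any comparison, and at an unadjusted p under 0.05 there were 2 of 23 chains in IL27_pepL against plasmid control (beside 23% of all genes), 5 in IL27_scr against plasmid control (beside 2.57%) and 3 in IL27_pepL against IL27_scr (beside 23.3%). Col1a1 and Col1a2, the chains of fibrillar type I collagen, both stood lowest in IL27_scr. Col1a1 was read at 114, 107 and 98.1 CPM in IL27_pepL, at 98.4, 96.5 and 94.6 CPM in IL27_scr and at 112, 106 and 108 CPM in plasmid control. Col1a2 was read at 319, 295 and 288 CPM in IL27_pepL, at 290, 293 and 285 CPM in IL27_scr and at 320, 317 and 317 CPM in plasmid control. All IL27_scr libraries were below all plasmid control libraries for both chains, with log2 fold changes of -0.17 ± 0.05 and -0.14 ± 0.05 that did not pass (edgeR, adjusted p = 0.999 for each). In TPM, Col1a2 exceeded Col1a1 by 3.15 ± 0.0989 times in IL27_pepL, 3.33 ± 0.0532 in IL27_scr and 3.26 ± 0.0799 in plasmid control (SD, n = 3).

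Of the other chains Col8a1, a short-chain network-forming collagen, had the smallest p in IL27_pepL against IL27_scr. It was read at 131, 115 and 105 CPM in IL27_pepL, at 140, 136 and 135 CPM in IL27_scr and at 130, 135 and 124 CPM in plasmid control. Its IL27_pepL libraries were all below the IL27_scr libraries, with a log2 fold change of -0.23 ± 0.07 (edgeR, adjusted p = 0.0801). Col7a1, which forms anchoring fibrils under epithelia, was read at 6.58, 6.71 and 5.53 CPM in IL27_pepL, at 5.42, 5.995 and 5.4 CPM in IL27_scr and at 7.99, 7.02 and 6.78 CPM in plasmid control. All libraries of both IL-27 groups were below every plasmid control library, by a log2 fold change of -0.21 ± 0.11 in IL27_pepL (edgeR, adjusted p = 0.251) and of -0.38 ± 0.11 in IL27_scr (adjusted p = 0.999). The chains Col4a6, Col11a1, Col11a2, Col12a1, Col17a1, Col20a1 and Col27a1 averaged under 1 TPM in plasmid control.

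Transcripts for basement membrane collagen IV came mainly from Col4a1 and Col4a2, which lie head to head on chromosome 8. Col4a1 was read at 470, 404 and 382 CPM in IL27_pepL, at 455, 405 and 440 CPM in IL27_scr and at 457, 437 and 450 CPM in plasmid control. Col4a2 was read at 334, 292 and 282 CPM in IL27_pepL, at 311, 297 and 303 CPM in IL27_scr and at 334, 320 and 325 CPM in plasmid control. In IL27_pepL the first replicate was the highest and the third the lowest for both genes. Their TPM ratio, Col4a1 over Col4a2, was 1.35 ± 0.0258 in IL27_pepL, 1.39 ± 0.0529 in IL27_scr and 1.34 ± 0.0107 in plasmid control. The start regions of both genes are shown because they face each other. Each window runs from 250 bases before to 50 bases after the RefSeq start (GRCm38.p6), Col4a1 at chr8:11312777-11313076 on the minus strand and Col4a2 at chr8:11312555-11312854 on the plus strand, and the windows share 78 bases of genome. Capitals mark the GC box (GGGCGG on either strand). The box marked in Col4a1 and the last box marked in Col4a2 are the same bases of genome, read from opposite strands.
Col4a1: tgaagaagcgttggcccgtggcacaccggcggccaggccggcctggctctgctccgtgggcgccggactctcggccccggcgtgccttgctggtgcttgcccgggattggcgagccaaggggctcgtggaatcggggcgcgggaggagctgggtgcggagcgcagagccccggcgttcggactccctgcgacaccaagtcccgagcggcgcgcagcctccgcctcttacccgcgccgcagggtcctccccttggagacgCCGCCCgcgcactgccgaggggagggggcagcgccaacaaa
Col4a2: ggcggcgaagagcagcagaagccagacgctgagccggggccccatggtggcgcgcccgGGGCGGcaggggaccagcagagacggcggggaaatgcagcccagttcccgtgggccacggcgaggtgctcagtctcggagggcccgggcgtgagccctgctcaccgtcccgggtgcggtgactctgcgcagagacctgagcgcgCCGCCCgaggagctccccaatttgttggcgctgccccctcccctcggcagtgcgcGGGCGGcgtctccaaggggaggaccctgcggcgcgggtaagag
The GC box was found in 66.2% of the 68 windows of the 62 members with an entry in the table, beside 63.7% of the windows of all genes in the count table and 35.7% of all windows. A match of letters is a description and not a bound site.

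Laminin chains did not pass in any comparison, and the family medians were -0.00, -0.02 and 0.01. Lamb1 and Lamc1, the beta and gamma chains of the common laminin trimers, led the family at 153 and 77.3 TPM in plasmid control, followed by Lamb2 at 32.3 TPM. Lamc1 was read at 216, 202 and 183 CPM in IL27_pepL, at 215, 219 and 205 CPM in IL27_scr and at 226, 228 and 211 CPM in plasmid control. IL27_pepL overlapped both other groups, and the log2 fold change against plasmid control was -0.15 ± 0.06 (edgeR, adjusted p = 0.164). Lamb1 was read at 343, 316 and 296 CPM in IL27_pepL, at 335, 345 and 315 CPM in IL27_scr and at 341, 336 and 332 CPM in plasmid control, and Lamb2 at 72.02, 68.7 and 64.4 CPM in IL27_pepL, at 68.5, 71.4 and 63.2 CPM in IL27_scr and at 68.9, 68.8 and 68.03 CPM in plasmid control. Both chains overlapped between all pairs of groups. Alpha chains, which carry the main integrin-binding end of the trimer, were scarce beside them. Lama5 stood at 0.0506 ± 0.00540 of the TPM of Lamc1 in IL27_pepL, 0.0506 ± 0.000991 in IL27_scr and 0.0488 ± 0.00284 in plasmid control, and Lama2, Lama3, Lama4 and Lamc3 averaged under 1 TPM. Lama3 had the widest difference of the family, at 0.966, 1.25 and 1.22 CPM in IL27_pepL against 0.845, 0.963 and 0.560 CPM in IL27_scr, a log2 fold change of 0.51 with an interval from -0.01 to 1.04 (edgeR, adjusted p = 0.222).

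Among the members that encode adhesive and matricellular glycoproteins no gene passed in any comparison, and Sparc and Thbs1 stood lowest after the control-peptide plasmid. The matricellular genes Ctgf and Cyr61, which are not members, did pass and are given below. Fn1 was read at 504, 455 and 454 CPM in IL27_pepL, at 510, 474 and 464 CPM in IL27_scr and at 510, 505 and 471 CPM in plasmid control. Its log2 fold change against plasmid control was -0.07 in IL27_pepL, with an interval from -0.19 to 0.05, and -0.04 in IL27_scr, with an interval from -0.16 to 0.09. Sparc, on chromosome 11 (55394500 to 55423183, minus strand), was read at 379, 381 and 360 CPM in IL27_pepL, at 324, 324 and 339 CPM in IL27_scr and at 362, 343 and 364 CPM in plasmid control. All IL27_scr libraries were below those of both other groups. The log2 fold change of Sparc was 0.18 ± 0.04 for IL27_pepL against IL27_scr (edgeR, adjusted p = 0.051), 0.07 ± 0.04 for IL27_pepL against plasmid control (adjusted p = 0.393) and -0.12 ± 0.04 for IL27_scr against plasmid control (adjusted p = 0.999).

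The fibulin Fbln2, which binds basement membrane and elastic fibre proteins, was read at 603, 602 and 552 CPM in IL27_pepL, at 578, 568 and 556 CPM in IL27_scr and at 600.1, 595 and 581 CPM in plasmid control. Its IL27_scr libraries were all below plasmid control, by a log2 fold change of -0.06 with an interval from -0.16 to 0.04. Fbln1 was read at 104, 98.2 and 94.2 CPM in IL27_pepL, at 96.4, 90.5 and 93.2 CPM in IL27_scr and at 93.8, 88.7 and 92.95 CPM in plasmid control, where IL27_pepL lay above plasmid control without overlap by 0.10 ± 0.05 (edgeR, adjusted p = 0.23).

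Thrombospondins bind many matrix proteins and cell receptors, and Thbs1 is known to activate latent TGF-beta. Thbs1 was read at 152, 150 and 117 CPM in IL27_pepL, at 122, 111 and 107 CPM in IL27_scr and at 138, 126 and 140 CPM in plasmid control. The third IL27_pepL replicate fell within the IL27_scr range, and the other two were above every library of both other groups. Its log2 fold change was 0.30 ± 0.09 for IL27_pepL against IL27_scr (edgeR, adjusted p = 0.0797). Against plasmid control, Thbs1, Thbs2 and Thbs3 had log2 fold changes of -0.24, -0.18 and -0.14 in IL27_scr, each with an unadjusted p under 0.05 (beside 1.68% of all genes lower at that level) and none past the adjusted threshold. Thbs2 was read at 47.3, 42.2 and 39.7 CPM in IL27_pepL, at 43.3, 41.7 and 40.98 CPM in IL27_scr and at 48.1, 50.2 and 43.9 CPM in plasmid control, and Thbs3 at 82.6, 78.04 and 74.1 CPM in IL27_pepL, at 76.5, 72.9 and 73.3 CPM in IL27_scr and at 82.1, 81.3 and 81.7 CPM in plasmid control. For both, IL27_scr lay wholly below plasmid control and IL27_pepL overlapped it. Fbln5, which helps to assemble elastic fibres, was read at 13.9, 15.95 and 14.5 CPM in IL27_pepL, at 16.6, 18.9 and 17.2 CPM in IL27_scr and at 18.6, 17.99 and 15.6 CPM in plasmid control. It was lower in IL27_pepL than in every IL27_scr library by a log2 fold change of -0.25 ± 0.09 (edgeR, adjusted p = 0.116).

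The 5 lysyl oxidase genes, whose products oxidise lysines in collagen and elastin so that the chains cross-link, all had a log2 fold change above 0 in IL27_pepL against IL27_scr, with a median of 0.20 beside 0.00 for all genes. Loxl4 lay between -0.05 and 0.06 over the alternative settings and so has no fixed direction, and the other 4 were above 0 with the length and GC offset. Of the 5 genes 4 were higher at an unadjusted p under 0.05, a level that 11.9% of all genes reached in that direction, and none passed. Loxl1, on chromosome 9 (58287738 to 58313186, minus strand) and known for elastic fibre upkeep, was read at 121, 125 and 128 CPM in IL27_pepL, at 112, 102 and 112 CPM in IL27_scr and at 114, 111 and 114 CPM in plasmid control. IL27_pepL was above every library of both other groups, by a log2 fold change of 0.20 ± 0.05 against IL27_scr (edgeR, adjusted p = 0.0519) and of 0.14 ± 0.05 against plasmid control (adjusted p = 0.125). Loxl2 was read at 45.8, 38.4 and 40.1 CPM in IL27_pepL, at 34.3, 32.6 and 35.4 CPM in IL27_scr and at 41.1, 33.3 and 41.2 CPM in plasmid control. It stood above IL27_scr in all IL27_pepL libraries and overlapped plasmid control, with log2 fold changes of 0.28 ± 0.09 (edgeR, adjusted p = 0.092) and 0.11 ± 0.09 (adjusted p = 0.484). The other abundant member, Loxl4, was read at 121, 112 and 103 CPM in IL27_pepL, at 111, 109 and 115 CPM in IL27_scr and at 126, 116 and 112 CPM in plasmid control, and its groups overlapped with a log2 fold change of 0.00 for IL27_pepL against IL27_scr. Lox was read at 144, 107 and 129 CPM in IL27_pepL, at 116, 94.8 and 104 CPM in IL27_scr and at 120, 87.6 and 114 CPM in plasmid control. Replicate 2 was the lowest library for Lox in each of the groups. The log2 fold change of Lox was 0.27 ± 0.12 against IL27_scr and 0.24 ± 0.12 against plasmid control (edgeR, adjusted p = 0.191 and 0.241).

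**Figure D3:**
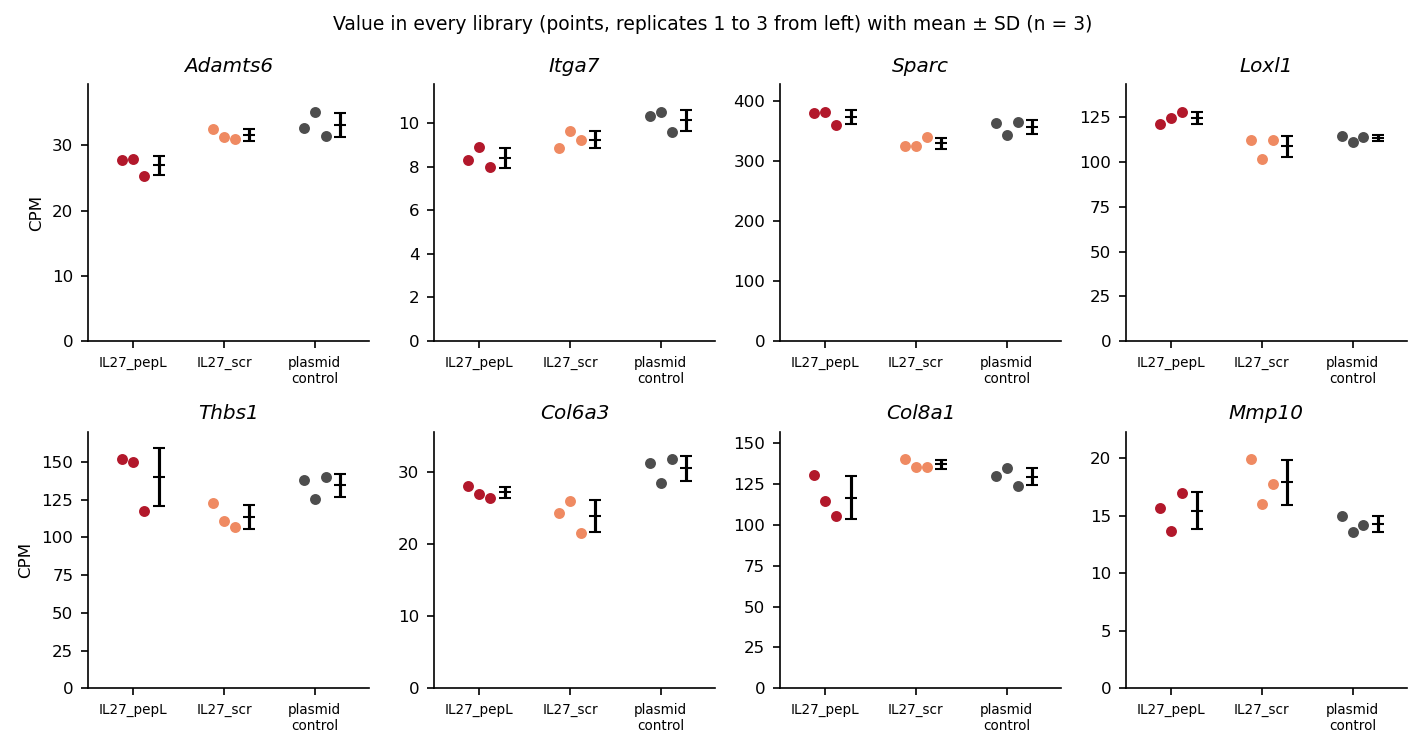
CPM (y axis, from 0) of 8 members in each of the 9 libraries, as points for replicates 1 to 3 with the mean and SD beside them, IL27_pepL left and plasmid control right. Adamts6 lies below both other groups in IL27_pepL at 25.3 to 27.9 CPM, and Loxl1 above them at 121 to 128 CPM.

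Integrin subunits, the receptors for these ligands, showed no called gene, and their medians were -0.04, -0.01 and -0.02 in IL27_pepL against plasmid control, IL27_scr against plasmid control and IL27_pepL against IL27_scr. Beside Itgb1 the abundant chains were Itga5 (fibronectin receptor), Itga6 and Itga3 (laminin receptors) and Itgav (vitronectin and RGD ligands), at 156, 145, 136 and 104 TPM in plasmid control. Itgb1 was read at 896, 838 and 801 CPM in IL27_pepL, at 862, 851 and 860 CPM in IL27_scr and at 875, 864 and 893 CPM in plasmid control. The spread among IL27_pepL libraries covered the other groups, and the interval of its log2 fold change was -0.16 to 0.05 for IL27_pepL against plasmid control. Itga5 was read at 259, 236 and 241 CPM in IL27_pepL, at 255, 251 and 249 CPM in IL27_scr and at 267, 256 and 249.5 CPM in plasmid control, with intervals of -0.17 to 0.03 and of -0.13 to 0.07 for IL27_pepL and IL27_scr against plasmid control. The TPM of Itgb1 was 4.58 ± 0.112 times that of Itga3 in IL27_pepL, 4.61 ± 0.0815 in IL27_scr and 4.49 ± 0.119 in plasmid control.

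Itga6 was the next lower receptor chain after IL27_pepL. It was read at 235, 210 and 196 CPM in IL27_pepL, at 239, 240 and 234 CPM in IL27_scr and at 243, 241 and 233 CPM in plasmid control. Only the first IL27_pepL library reached the range of the other groups, and the log2 fold change was -0.16 ± 0.06 against plasmid control (edgeR, adjusted p = 0.135) and -0.15 ± 0.06 against IL27_scr (adjusted p = 0.14). Itgb4, a beta partner of Itga6, was read at only 0.695 TPM in IL27_pepL, 0.708 in IL27_scr and 0.520 in plasmid control, against 122, 145 and 145 TPM for Itga6. Itgb7 and Itgb2, beta chains best known from leukocytes, were present at 95.9 and 11.5 TPM in plasmid control, while the leukocyte genes Cd68 and Csf1r averaged 13.4 and 0.780 TPM there and Ptprc, Adgre1 and Cd3e were not analysed here. Itgb7 was read at 98.0, 93.5 and 91.9 CPM in IL27_pepL, at 103, 108 and 102 CPM in IL27_scr and at 99.0, 102 and 89.8 CPM in plasmid control, and the log2 fold change for IL27_pepL against IL27_scr was -0.14 ± 0.05 (edgeR, adjusted p = 0.137). Itga1, Itga2, Itga10, Itgb3, Itgb4 and Itgb8 averaged under 1 TPM in plasmid control. The integrin-binding protein genes Itgb1bp1 and Itgb3bp did not pass in any comparison.

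Matrix metalloproteinases showed no called gene, with medians of -0.06, 0.01 and -0.08. Mmp14, the membrane-anchored collagenase that also activates pro-MMP2, was by far the most abundant at 86.5 ± 12.1 TPM in IL27_pepL, 89.2 ± 3.18 in IL27_scr and 96.2 ± 3.76 in plasmid control. Its substrate gene Mmp2 averaged 0.608, 0.841 and 0.769 TPM in the same order, and the other gelatinase gene Mmp9 averaged 0.725, 0.699 and 0.686 TPM. Mmp11 and Mmp3, stromelysin-type enzymes, stood at 31.2 and 33.1 TPM in plasmid control and Mmp23 at 21.2 TPM. Mmp11 was read at 31.1, 26.9 and 30 CPM in IL27_pepL, at 27.8, 26.3 and 27.1 CPM in IL27_scr and at 28.2, 24.01 and 28.6 CPM in plasmid control, and its groups overlapped. Mmp28, epilysin, was read at 1.02, 1.13 and 1.22 CPM in IL27_pepL, at 1.22, 1.71 and 1.15 CPM in IL27_scr and at 1.31, 1.84 and 1.24 CPM in plasmid control, with all IL27_pepL libraries below plasmid control and a log2 fold change of -0.38 ± 0.22 (edgeR, adjusted p = 0.316). Mmp19, Mmp16 and Mmp28 lay between 1 and 10 TPM, and Mmp17 and Mmp24 under 1 TPM.

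Mmp13, Mmp3 and Mmp10 lie in this order in 1 cluster on chromosome 9, with 173.3 kb and 56.5 kb between starts, and encode a collagenase and a pair of stromelysins. Mmp13 was read at 30.3, 21.4 and 27.3 CPM in IL27_pepL, at 32.5, 31.1 and 29.4 CPM in IL27_scr and at 27.2, 21.9 and 21.1 CPM in plasmid control. Mmp10 was read at 15.7, 13.7 and 17.0 CPM in IL27_pepL, at 19.9, 16.1 and 17.8 CPM in IL27_scr and at 15.0, 13.6 and 14.2 CPM in plasmid control. Mmp3 was read at 25.3, 20.6 and 24.4 CPM in IL27_pepL, at 24.8, 23.6 and 23.6 CPM in IL27_scr and at 25.1, 21.5 and 20.7 CPM in plasmid control. For all of them replicate 2 was lowest in IL27_pepL and replicate 1 highest in IL27_scr and in plasmid control. Mmp13 and Mmp10 were above every plasmid control library in IL27_scr, with log2 fold changes of 0.40 ± 0.12 and 0.33 ± 0.10 (edgeR, unadjusted p = 0.00469 and 0.00465, adjusted p = 0.999 for each), and Mmp3 overlapped at 0.09 ± 0.09. In IL27_pepL against plasmid control the log2 fold changes were 0.16 ± 0.12 for Mmp13, 0.11 ± 0.10 for Mmp10 and 0.06 ± 0.09 for Mmp3.

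The start regions of this cluster are shown because Mmp13 and Mmp10 did not overlap plasmid control in IL27_scr and each of its genes holds the AP-1 motif, TGANTCA on either strand, in capitals below. The windows (RefSeq, GRCm38.p6, plus strand) are chr9:7272264-7272563 for Mmp13, chr9:7445572-7445871 for Mmp3 and chr9:7502092-7502391 for Mmp10.
Mmp13: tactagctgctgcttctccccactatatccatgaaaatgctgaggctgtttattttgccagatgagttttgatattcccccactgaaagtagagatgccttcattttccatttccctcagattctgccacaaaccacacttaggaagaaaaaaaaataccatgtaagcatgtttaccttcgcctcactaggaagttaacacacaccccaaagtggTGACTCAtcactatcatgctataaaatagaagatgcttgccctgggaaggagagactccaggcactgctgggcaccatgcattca
Mmp3: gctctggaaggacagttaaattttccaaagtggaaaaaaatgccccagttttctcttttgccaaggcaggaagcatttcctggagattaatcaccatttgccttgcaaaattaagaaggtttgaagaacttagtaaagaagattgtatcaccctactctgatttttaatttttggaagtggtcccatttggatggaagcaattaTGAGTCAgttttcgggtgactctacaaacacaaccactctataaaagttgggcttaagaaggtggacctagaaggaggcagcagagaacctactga
Mmp10: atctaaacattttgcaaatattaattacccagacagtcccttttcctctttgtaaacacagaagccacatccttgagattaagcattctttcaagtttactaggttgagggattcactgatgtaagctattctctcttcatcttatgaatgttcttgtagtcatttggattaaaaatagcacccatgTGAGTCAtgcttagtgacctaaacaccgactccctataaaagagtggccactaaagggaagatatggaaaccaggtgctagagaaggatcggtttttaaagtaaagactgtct
The first base of the motif lies at position -35 in Mmp13, -46 in Mmp3 and -63 in Mmp10 relative to the RefSeq start. AP-1 was found in 3 of the 9 MMP windows and in 5 of 68 windows of all members, or 7.35%, beside 5.19% of windows of genes in the count table and 7.81% of all 32851 windows. The STAT motif TTCNNNGAA, searched because IL-27 signals through STAT proteins, was in 7.35% of the members' windows, beside 6.77% for genes of the count table and 8.3% of all windows. These shares describe letters in these windows only.

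ADAMTS proteases, which cut proteoglycans and procollagens, had medians of -0.03, -0.05 and 0.01. Adamts1, an aggrecan- and versican-cleaving enzyme, was the most abundant at 52.2 ± 4.38 TPM in IL27_pepL, 56.3 ± 2.66 in IL27_scr and 55.2 ± 4.71 in plasmid control, and its interval for IL27_pepL against plasmid control was -0.13 to 0.16. Adamts14, a procollagen N-proteinase, was read at 36.8, 33.9 and 35.8 CPM in IL27_pepL, at 37.8, 39.0 and 40.3 CPM in IL27_scr and at 39.3, 40.1 and 35.1 CPM in plasmid control. It was lower than every IL27_scr library in IL27_pepL, by a log2 fold change of -0.14 ± 0.06 (edgeR, adjusted p = 0.209). Adamts6 was read at 32.6, 31.2 and 31.0 CPM in IL27_scr, so its IL27_pepL libraries were below those of both other groups, with a log2 fold change of -0.23 ± 0.06 against IL27_scr (edgeR, adjusted p = 0.0702) and of -0.07 ± 0.06 for IL27_scr against plasmid control (adjusted p = 0.999). Of the other ADAMTS genes, Adamts4, an aggrecan-cleaving enzyme, lay above IL27_scr in every IL27_pepL library. It was read at 6.35, 5.05 and 5.32 CPM in IL27_pepL against 4.84, 4.79 and 4.22 CPM in IL27_scr, with a log2 fold change of 0.27 ± 0.12 (edgeR, adjusted p = 0.192). Of the ADAMTS-like proteins, which lack the protease part, Adamtsl5 was read at 29.7, 33.1 and 32.9 CPM in IL27_pepL, at 28.96, 27.3 and 28.5 CPM in IL27_scr and at 29.4, 27.8 and 31.4 CPM in plasmid control, higher than every IL27_scr library in IL27_pepL by 0.18 ± 0.07 (edgeR, adjusted p = 0.134). Adamtsl4 was read at 13.7, 11.7 and 11.3 CPM in IL27_pepL, at 12.5, 12.2 and 11.2 CPM in IL27_scr and at 12.7, 13.1 and 13.3 CPM in plasmid control. Its IL27_scr libraries were all below plasmid control, at a log2 fold change of -0.12, with an adjusted p of 0.999 in edgeR's test. Adamts3 and Adamts12 averaged under 1 TPM in plasmid control.

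No TIMP gene passed in any comparison. Timp2, which inhibits MMPs and takes part in pro-MMP2 activation with Mmp14, was read at 453, 454 and 424 CPM in IL27_pepL, at 425, 402 and 426 CPM in IL27_scr and at 435, 429 and 444 CPM in plasmid control. Its log2 fold change against plasmid control was 0.03 in IL27_pepL, with an interval from -0.07 to 0.12. The TPM of Timp2 was 3.46 ± 0.212 times that of Mmp14 in IL27_pepL, 3.35 ± 0.0731 in IL27_scr and 3.25 ± 0.115 in plasmid control. Timp1 was read at 67.8, 73.4 and 86.8 CPM in IL27_pepL, at 68.7, 79.7 and 75.0 CPM in IL27_scr and at 71.9, 73.4 and 71.7 CPM in plasmid control. Timp3, which binds to the matrix, was read at 90.7, 89.5 and 67.1 CPM in IL27_pepL, at 79.6, 77.7 and 79.5 CPM in IL27_scr and at 89.0, 91.5 and 85.4 CPM in plasmid control. In the third IL27_pepL replicate Timp1 was the highest of all 9 libraries and Timp3 the lowest. Serpine2, protease nexin-1, averaged 3.01 TPM in IL27_pepL, 3.71 in IL27_scr and 3.32 in plasmid control, with no difference past the test.

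IL27_pepL libraries differed among themselves more than those of the other groups. Replicates 1 and 3 of IL27_pepL differed by a chi-square of 32.8 per degree of freedom over all genes, where other replicate pairs lay between 3.04 and 14.4. Replicate 1 was the highest of its group for 56 of 92 members and for 18 of 23 collagens. Replicate 3 was the lowest for 47 members and again for 18 collagens. Over all genes IL27_pepL replicate 1 was highest for 4473 of 12125, and replicate 3 was lowest for 39.5%. In IL27_scr and plasmid control too, replicate 1 was highest most often, for 47 and 42 members. There replicate 3 was lowest for 44 and 43 members. Replicate 1 was highest for 13 collagens in each of these groups, and replicate 3 lowest for 9 and 11. Summed collagen TPM was 924, 772 and 703 in IL27_pepL, 888, 809 and 831 in IL27_scr and 913, 893 and 882 in plasmid control. The median collagen lay at 0.09, -0.11 and -0.20 on the log2 scale from the plasmid control mean in IL27_pepL replicates 1, 2 and 3, at -0.04, -0.14 and -0.11 in the IL27_scr replicates and at 0.03, -0.00 and -0.01 in the plasmid control replicates. With IL27_pepL replicate 1 left out, 11 members were called against plasmid control, 2 higher and 9 lower. The lower ones were Adamts6, Col4a1, Col4a2, Col4a5, Col8a1, Itga6, Itgav, Lamc1 and Thbs2, and the higher ones Loxl1 and Itgb1bp1. That is 12% of members, beside 17.2% of all genes called in the same setting. In bulk RNA, fewer cells of a type and less RNA per cell cannot be told apart.

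**Figure D4:**
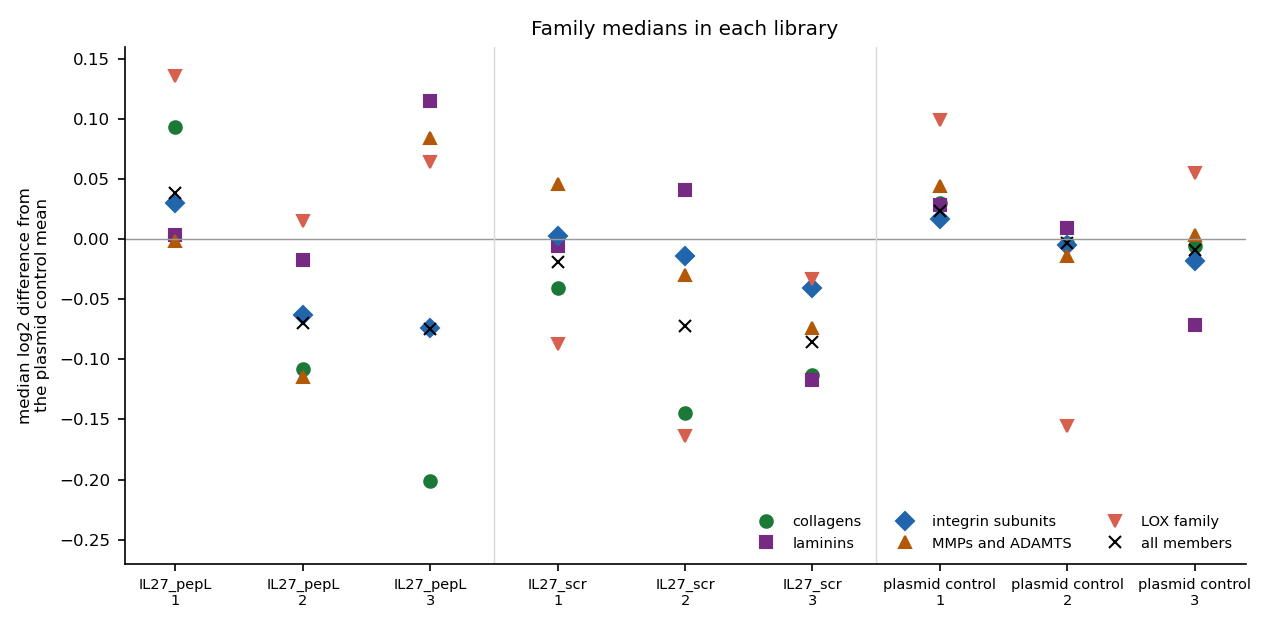
Median log2 difference of each family from the plasmid control mean (y axis) in each of the 9 libraries (x axis), IL27_pepL left. The collagen median is 0.09 in the first and -0.20 in the third IL27_pepL library, a wider span than in IL27_scr (-0.04 to -0.14) or plasmid control (0.03 to -0.01).

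Gene length moved with the fold changes of IL27_pepL. Matrix genes are long, and 52 of the 92 members fell in the longest of 4 equal-sized groups of genes by exon length. In IL27_pepL against plasmid control the median log2 fold change of all genes was 0.11 in the shortest group and -0.08 in the longest, and that of the 52 long members was -0.05. In IL27_pepL against IL27_scr the medians of all genes were 0.10 and -0.06, and that of the long members was 0.04. In IL27_scr against plasmid control all genes spanned 0.01 to -0.02, and the long members stood at -0.07. The part of length in the members' differences beyond the length and GC correction was not tested. With that correction the log2 fold change of Adamts6 in IL27_pepL against plasmid control was -0.20 and no longer passed (edgeR, adjusted p = 0.065), and Loxl2 and Thbs1 passed as higher in IL27_pepL than in IL27_scr at 0.31 and 0.34 (adjusted p = 0.0365 and 0.0123).

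**Figure D5:**
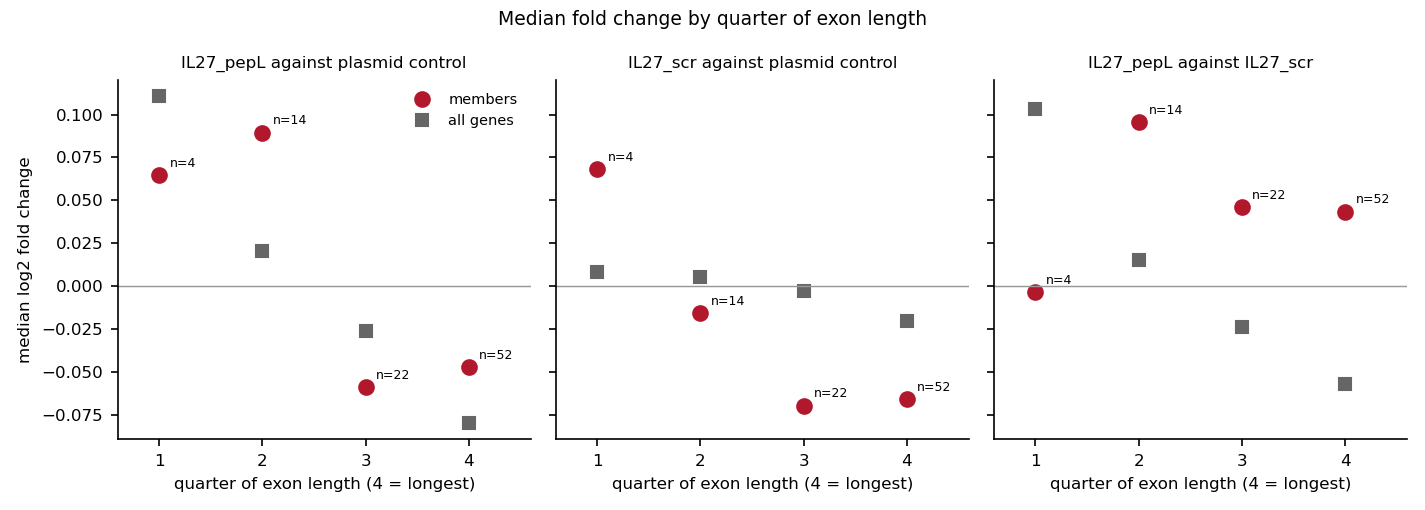
Median log2 fold change (y axis) of the members and of all genes by exon-length group (x axis, group 4 longest) in the 3 comparisons, with the number of members beside each point. In IL27_pepL against plasmid control all genes run down to -0.08 in the longest group, which holds 52 members with a median of -0.05.

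Markers of other cell types were read beside these genes. Summed levels of the fibroblast and pericyte genes Pdgfra, Pdgfrb, Dcn and Acta2 (4 of 5 listed) lay between 68.6 and 89.1 TPM in IL27_pepL, between 74.2 and 87.5 in IL27_scr and between 72.8 and 82.3 in plasmid control. The endothelial genes Cdh5 and Kdr (2 of 4) summed to between 1.97 and 3.08 TPM in IL27_pepL, between 3.05 and 3.86 in IL27_scr and between 2.59 and 3.66 in plasmid control. The leukocyte genes Cd68 and Csf1r (2 of 5) summed to between 14.98 and 15.7 TPM in IL27_pepL, between 14.6 and 15.95 in IL27_scr and between 13.3 and 14.9 in plasmid control. In IL27_pepL replicate 1 the mesenchymal list (6 of 6) summed to 4040 TPM, the highest of all 9 libraries, and the fibroblast and pericyte list at 89.1 TPM was also the highest. The second highest mesenchymal sum, 3924 TPM, was in IL27_pepL replicate 3, where the members took the smallest share of counts. Vim made up most of both sums, at 3741 TPM in replicate 1 and 3673 TPM in replicate 3. In TPM the rest of the list, Cdh2, Zeb1, Zeb2, Snai2 and Twist1, were each lowest of all 9 libraries in IL27_pepL replicate 3. The part of these levels in the matrix values of either library was not tested.

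Genes of matrix biology, listed by pathway and chosen with earlier results of these data known, were counted for comparison. All but Itgb1bp1 and Itgb3bp lie outside the members. Over all genes, 1.62% were called in IL27_pepL against plasmid control and 2.52% in IL27_pepL against IL27_scr. Of 25 measured proteoglycan, glycoprotein and elastic fibre genes, 2 were higher in IL27_pepL than in plasmid control and the same 2 higher than in IL27_scr: Ctgf and Cyr61, matricellular proteins of the CCN family. Ctgf had a log2 fold change of 0.42 against plasmid control and 0.46 against IL27_scr (edgeR, adjusted p = 0.000493 and 0.000298), and Cyr61 of 0.37 and 0.36 (edgeR, adjusted p = 0.00267 and 0.00304). Ctgf was read at 81.1, 80.4 and 79.9 CPM in IL27_pepL, at 57.7, 58.4 and 59.0 CPM in IL27_scr and at 62.0, 59.9 and 58.9 CPM in plasmid control, so IL27_pepL lay above both other groups without overlap. Cyr61 averaged 645 ± 30.9 CPM in IL27_pepL, 504 ± 14.3 in IL27_scr and 498 ± 12.7 in plasmid control (SD, n = 3). Of 22 other protease, activator and inhibitor genes, Cst3 alone passed. Cst3 encodes cystatin C, a cysteine protease inhibitor, and averaged 141 ± 13.3 CPM in IL27_pepL, 108 ± 6.29 in IL27_scr and 114 ± 6.83 in plasmid control, at a log2 fold change of 0.31 ± 0.07 against plasmid control (edgeR, adjusted p = 0.044) and of 0.38 ± 0.07 against IL27_scr (adjusted p = 0.0136).

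None of 16 collagen synthesis genes and none of 23 integrin adhesion genes, which include the members Itgb1bp1 and Itgb3bp, passed edgeR's test in any comparison. Of all genes 1.62% passed in IL27_pepL against plasmid control, 0.0247% in IL27_scr against plasmid control and 2.52% in IL27_pepL against IL27_scr. In the first list the smallest p of edgeR's quasi-likelihood test in IL27_pepL against plasmid control belonged to P4hb, a subunit of prolyl 4-hydroxylase, with a log2 fold change of 0.17 (adjusted p = 0.129), and in IL27_pepL against IL27_scr to the lysyl hydroxylase gene Plod1, at 0.21 (adjusted p = 0.0898). In edgeR's test of the second list the adaptor Lims1 stood at -0.16 (adjusted p = 0.123) against plasmid control and the kinase Src at -0.14 (adjusted p = 0.102) for IL27_pepL against IL27_scr. In IL27_scr against plasmid control no gene of the 4 lists passed, and the smallest p values belonged to Postn (periostin, log2 fold change -0.27), Tgm2 (transglutaminase 2, 0.16), Ctsl (cathepsin L, 0.09) and Tln1 (talin, -0.06).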

How the data were processed

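RNA-seq counts of 9 libraries were used, 3 groups of 3. The deposited table holds raw whole-number counts for 12125 genes, made by the authors; the submitters' processing notes name FastQC, STAR, featureCounts, Subread 1.6.1, edgeR 3.22.5 and mm10, with no role or order. Whether counting used strand is not given in the sources used here, so overlapping or antisense genes may share counts.

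Counts were fitted with edgeR 4.0.16 in R 4.3.3 (TMM scaling, quasi-likelihood test, group as the only term, all 9 libraries, Benjamini-Hochberg adjustment over 12125 genes, threshold 0.05). The filter on low counts removed 0 genes. CPM uses TMM-scaled library totals. TPM was computed from counts and exon lengths of the GENCODE annotation of GRCm38 for 12060 genes. Because TPM is scaled by the lengths of all genes read in a library, TPM and CPM can order libraries differently. Standard errors and 95% intervals come from the fit, and the biological coefficient of variation was 5.76%. Alternatives used DESeq2 1.42.0, limma-voom 3.58.1, other filters and scalings, a replicate block, a length and GC offset (splines with 4 degrees of freedom) and each library left out. The edgeR, DESeq2 and limma-voom fits were tested on simulated data. Start regions and their motifs came from RefSeq.

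The members and lists were chosen with earlier results of these data known. Genes named with values were every called member, up to 3 with the highest level in each family, and the smallest p of each family in each comparison. Some members that the rule names are not reported here. Genes outside this rule were chosen after their values were seen.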

Additional observations from a re-analysis of the deposited data

How the results depend on the processing

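In IL27_pepL against plasmid control the 1 called member (1.09%, beside 1.62% of all genes) became 0 with only the 2 groups compared (beside 0.396% of all genes) and 0 with the length and GC offset (beside 2.05%). With each library left out in turn the count was between 0 and 11, where 11 (12%, beside 17.2% of all genes) came without IL27_pepL replicate 1 and 0 without any 1 of the other 8 libraries. DESeq2 size factors, DESeq2's Wald test, limma-voom and both low-count filters gave 1, beside 1.6%, 6.38%, 1.44%, 1.62% and 1.67% of all genes. In IL27_pepL against IL27_scr the count of 0 became 2 (2.17%) with DESeq2 size factors (Sparc and Loxl1, beside 2.52% of all genes), 2 with a filter of 1 CPM in 3 libraries (beside 2.59%) and 2 with the length and GC offset (Loxl2 and Thbs1, beside 3.93%). It became 6 (6.52%) with DESeq2's Wald test, beside 6.54%, and 1 (1.09%) with limma-voom, beside 2.44%. With each library left out it was between 0 and 8, with 8 (8.7%, beside 14.7% of all genes) without IL27_pepL replicate 1, 4 (4.35%, beside 2.24%) without IL27_pepL replicate 3, 1 (Sparc, beside 3.33%) without plasmid control replicate 2 and 0 without any 1 of the other 6 libraries. In IL27_scr against plasmid control the count was 0 in all of these settings. Adamts6 stayed below 0 in IL27_pepL against plasmid control in each setting. Timp3, called in IL27_pepL against IL27_scr without IL27_pepL replicate 3 at a log2 fold change of 0.19, stood at 0.06 with all libraries and at -0.00 without IL27_pepL replicate 1. The cause of these changes was not tested. Members under 1 TPM had few reads, and most of their intervals reached past 1.5-fold.

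Replicate numbers were not taken to pair the samples, because the labels state no pairing. Of 9 correlations of deviations between same-numbered libraries, 4 were above 0.1. They lay between -0.061 and 0.311 with 8 above 0, and 4 of 9 libraries correlated best with their own number in both other groups. Whether same-numbered libraries share an effect was not tested. With the replicate block 2 members (2.17%) were called in IL27_pepL against plasmid control (Lox higher, Adamts6 lower), where the calls over all genes went up to 1019 (8.4%), against 197 without the block. In IL27_pepL against IL27_scr 7 members (7.61%; 5 higher, 2 lower) were called with the block, beside 1110 of all genes (9.15%), against 306 without it. The block with the length and GC offset gave 3 (3.26%, beside 6.01% of all genes) and 10 (10.9%, beside 8.32%).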
